A study of Macaca fascicularis with 3 samples.

Results

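The miR-26 family was measured by small RNA sequencing in the kidney cortex, the outer kidney tissue with the glomeruli and most proximal tubules, of 3 cynomolgus monkeys (Macaca fascicularis). Its rows were chosen by name, as every listed miRNA with the stem miR-26a or miR-26b, whatever its copy number or arm. Of the 432 mature miRNAs in the table of read counts, 5 met this rule: mfa-miR-26a-5p, written without its species prefix from here on, miR-26b-5p, miR-26b-3p, miR-26a-2-3p and miR-26a-1-3p. All 5 were paired with a human miRNA of the same name. All were also above the minimum mean count of 10 that selected the 391 miRNAs compared between animals. The animals were untreated and between 2 and 3 years old, with 1 small RNA library each from frozen cortex, and together they form a single group without a treated or control arm. The levels below are therefore descriptions of untreated tissue, and the comparisons are between rows of the family within a library and between the 3 libraries.

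A microRNA is cut from a hairpin precursor whose 2 arms, 5p and 3p, can each give a mature strand, and the strand that is loaded into Argonaute guides it to messenger RNAs. The miR-26 hairpins lie in introns of genes for the small C-terminal domain phosphatases: miR-26a-1 in CTDSPL, miR-26a-2 in CTDSP2 and miR-26b in CTDSP1. Both miR-26a hairpins give the same 5p strand but different 3p strands, so that the copies can be told apart only by their 3p rows. The 5p strands of miR-26a and miR-26b are the usual guides, are nearly identical and share their seed, the stretch of bases that selects targets. A known target of miR-26a is EZH2, a histone methyltransferase that silences genes. The family is broadly expressed in differentiated tissues and is described as restraining the cell cycle.

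Counts on listed miRNAs summed to 4305977 in animal 1, 4707892 in animal 2 and 3957188 in animal 3, and values in counts per 1000000 (CPM) are relative to these totals. The library of animal 3 stood apart, since 26 of the 391 miRNAs lay at least 4-fold below the mean of the other libraries there, against 2 each in animals 1 and 2. Among markers of other cells, the endothelial miR-126 took 3.99% to 4.98% of counts, miR-144, miR-451 and miR-486 of red cells took 0.437% to 0.576%, and miR-142, miR-150 and miR-223 of leucocytes took 0.152% to 0.173%. The smooth muscle markers miR-143 and miR-145 together ranged more widely, at 2.82%, 3.18% and 4.44% in animals 1, 2 and 3. The rise lay in miR-145, at 2.01%, 2.68% and 3.83%, while miR-143-3p had 34745, 23441 and 24193 counts, the most in animal 1. The renal tubule markers miR-192, miR-194 and miR-204, which mark the labelled tissue, together took 5.31% to 6.20%. Most of this was miR-204, at 4.75%, 5.37% and 4.34% in animals 1, 2 and 3. miR-194-5p was at 0.490%, 0.444% and 0.525%, in another order of animals, and miR-192-5p averaged 4292 CPM. miR-122, known from liver, was at 0.000404% to 0.000882%. In bulk tissue, fewer cells of a type and less RNA per cell cannot be told apart.

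The family took 5.19% ± 0.856 (SD, n = 3) of all listed counts. With Wilson 95% confidence intervals, it made up 5.91% (5.89 to 5.93) of the library of animal 1, 5.42% (5.40 to 5.44) of that of animal 2 and 4.25% (4.23 to 4.27) of that of animal 3. Animal 3 was the lowest, and none of the intervals overlapped, although they cover counting error only. When names were grouped by their number into 235 stems, miR-26 was number 5 by mean share, after miR-30, miR-10, let-7 and miR-29. Its place was 5 in animals 1 and 2 and 7 in animal 3, where miR-125 and miR-204 took larger shares.

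miR-26a-5p, the main guide strand of the family, held nearly all of this. It had 230269 counts in animal 1, 231421 in animal 2 and 148587 in animal 3, which is 53477, 49156 and 37549 CPM. Animals 1 and 2 were close to each other and animal 3 was lower. The mean was 46727 CPM ± 8237 (SD, n = 3), and the row took 90.4%, 90.7% and 88.4% of the family's counts in the 3 animals. By level it was number 3 of the 432 names in animal 1, number 4 in animal 2 and number 10 in animal 3. Its mean lay between those of miR-204-5p, at 48124 CPM ± 5111 (SD, n = 3), and miR-126, at 43515 CPM ± 5497 (SD, n = 3). miR-26a-5p was above miR-204-5p in animal 1 and below it in animals 2 and 3, and above miR-126 in animals 1 and 2 and below it in animal 3. The order of these neighbours is thus not resolved by 3 animals.

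miR-26b-5p, the guide strand of the other paralogue, had 23915, 23180 and 19014 counts in animals 1, 2 and 3, or 5554, 4924 and 4805 CPM. Its mean was 5094 CPM ± 403 (SD, n = 3), a coefficient of variation of 7.90%, against 17.6% for miR-26a-5p. It stood at number 35, 40 and 37 of the 432 names in the 3 animals. Its neighbours by mean were miR-99a-5p at 5108 CPM ± 1568 (SD, n = 3) and miR-194-5p at 4862 CPM ± 408 (SD, n = 3), and the differences from both were smaller than the spread between animals.

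The 3p strands, usually the discarded partners of the guides, were far less abundant. miR-26b-3p had 290 counts in animal 1, 404 in animal 2 and 304 in animal 3, which averaged 76.7 CPM ± 9.23 (SD, n = 3). miR-26a-2-3p, from the second miR-26a copy, had 79, 99 and 107 counts and averaged 22.1 CPM ± 4.45 (SD, n = 3). miR-26a-1-3p, the lowest row of the family, had 43, 56 and 47 counts and a mean of 11.3 CPM ± 1.10 (SD, n = 3). A floor of 3 counts lies between 0.637 and 0.758 CPM in these libraries, so that even the lowest row was counted in every animal. The order of the 5 rows was the same in each library, and the CPM ranges of the rows did not overlap. Levels of different miRNAs depend on how well each is ligated and sequenced as well as on its abundance, and the size of that effect was not tested.

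**Figure D1:**
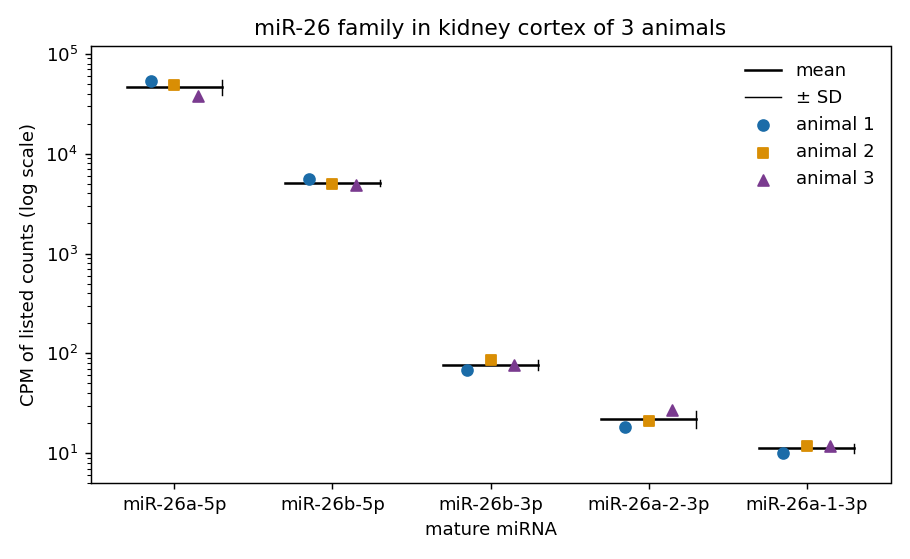
Levels of the 5 miR-26 rows in kidney cortex, in CPM of listed counts on a log axis, with 1 point per animal and the mean ± SD over 3 animals as black lines. The rows fall in the same order in every animal, from miR-26a-5p at a mean of 46727 CPM down to miR-26a-1-3p at 11.3 CPM.

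**Figure D2:**
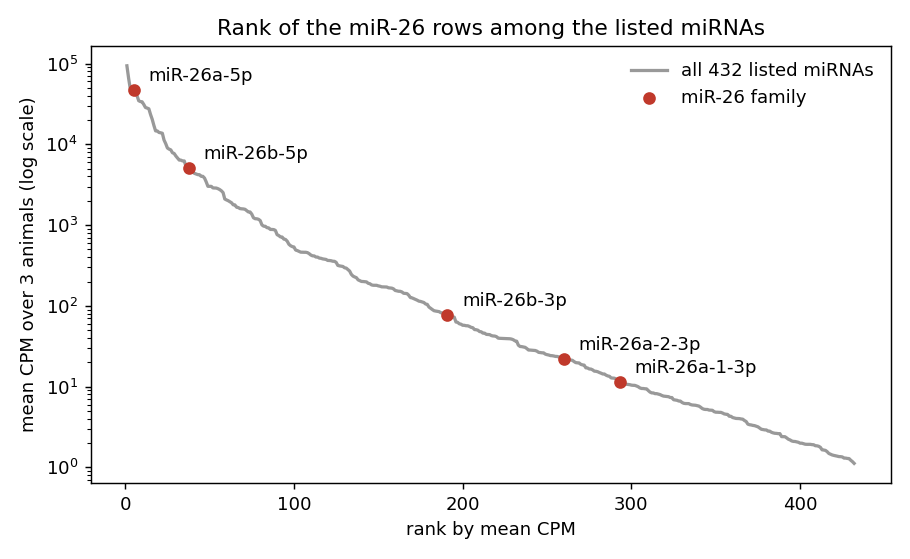
Mean CPM over 3 animals on a log axis against rank for the 432 listed miRNAs, with the miR-26 rows as red points. miR-26a-5p is at rank 5 and miR-26b-5p at rank 38, while the 3p rows are at ranks 191, 260 and 293.

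The guide strands of the paralogues were then set against each other inside each library, so that no scaling enters the ratio. miR-26a-5p exceeded miR-26b-5p 9.63-fold in animal 1, 9.98-fold in animal 2 and 7.81-fold in animal 3. The mean log2 ratio was 3.18 ± 0.19 (SD, n = 3), in the same direction in 3 of 3 animals, and an exact permutation test that flips signs over animals (two-sided) gave p = 0.25. That is the smallest p that 3 animals allow, and it was also the exact permutation p, raw and adjusted, of each of the 6 within-library comparisons made in the family. miR-26a-5p made up 90.6% (Wilson 95% interval 90.5 to 90.7) of the counts of both guides in animal 1, 90.9% (90.8 to 91.0) in animal 2 and 88.7% (88.5 to 88.8) in animal 3. The share in animal 3 lay below both other intervals. miR-26a-5p can come from a pair of hairpins and miR-26b-5p from 1, and reads were matched with 0 mismatches. How reads too short to separate the paralogues were assigned is not given in the sources used here.

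The 3p strands showed the opposite order of the paralogues. The summed 3p counts of both miR-26a hairpins were 122, 155 and 154 in animals 1, 2 and 3, below the counts of miR-26b-3p in each. miR-26b-3p exceeded this sum 2.38-fold in animal 1, 2.61-fold in animal 2 and 1.97-fold in animal 3, a mean log2 ratio of 1.20 ± 0.20 (SD, n = 3) in the same direction in 3 of 3 animals. miR-26a thus held 90.0% ± 1.22 (SD, n = 3) of the 5p counts of the family but 30.3% ± 3.01 (SD, n = 3) of its 3p counts.

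Between the miR-26a copies, the 3p strand of miR-26a-2 was the more abundant. It exceeded that of miR-26a-1 1.84-fold, 1.77-fold and 2.28-fold in animals 1, 2 and 3, a mean log2 ratio of 0.96 ± 0.20 (SD, n = 3) that was positive in 3 of 3 animals. miR-26a-2-3p made up 64.8% (Wilson 95% interval 55.9 to 72.7) of the miR-26a 3p counts in animal 1, 63.9% (56.1 to 71.0) in animal 2 and 69.5% (61.8 to 76.2) in animal 3. The intervals overlap, and each lies above 50%. Overlap of intervals is not a test, and a difference between animals in this share was not tested. The table has no row for the 5p strand of each copy, and the part of miR-26a-5p that came from either copy was not measured.

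Arm use was strongly one-sided in both paralogues. For miR-26a, 99.9% of counts were on the 5p arm in each animal, and the 5p counts exceeded the 3p counts 1887-fold in animal 1, 1493-fold in animal 2 and 965-fold in animal 3. For miR-26b, the 5p arm held 98.8% (Wilson 95% interval 98.7 to 98.9) of counts in animal 1, 98.3% (98.1 to 98.4) in animal 2 and 98.4% (98.2 to 98.6) in animal 3, and the fold of 5p over 3p was 82.5, 57.4 and 62.5. The arm ratio of miR-26a was higher than that of miR-26b in 3 of 3 animals, 22.9-fold, 26.0-fold and 15.4-fold, with a mean log2 difference of 4.39 ± 0.39 (SD, n = 3).

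The table lists both arms, with a combined mean count of at least 10, for 132 hairpin names after copies were summed. The 5p arm was the larger in 74 of these. Over all 132 the median ratio of the larger to the smaller arm was 25.0-fold. miR-26a ranked 12 of 132 by this ratio and 9 of the 74 with a larger 5p arm, and miR-26b ranked 49 of 132 and 33 of the 74.

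**Figure D3:**
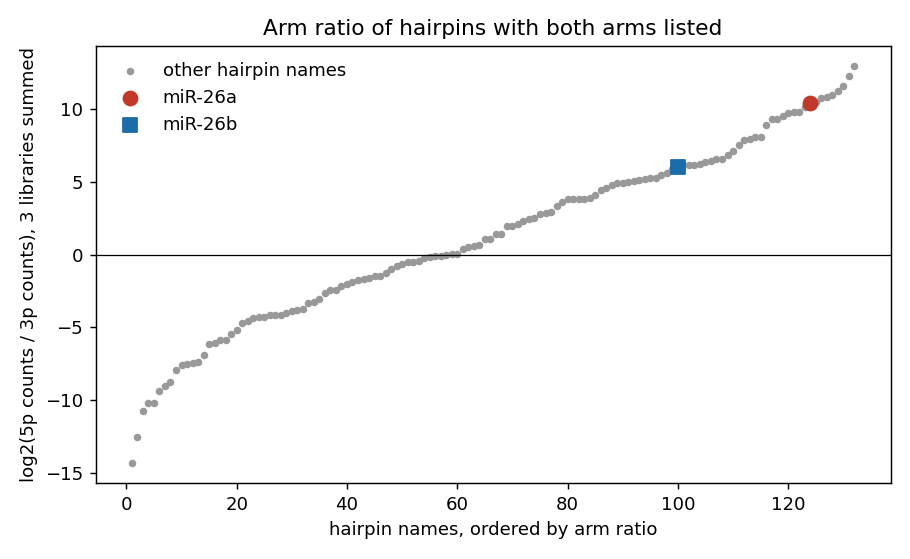
Arm ratio of the 132 hairpin names with both arms listed, as log2 of 5p over 3p counts summed over 3 libraries (with 0.5 added to each sum), ordered from the most 3p-rich on the left to the most 5p-rich on the right. miR-26a lies at 10.47 and miR-26b at 6.05, both far on the 5p side of the line at 0.

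The arm ratios also differed between libraries beyond counting error. A chi-square test of the arm counts over the 3 libraries, with Benjamini-Hochberg adjustment over the 132 hairpin names, gave an adjusted p of 1.47e-07 for miR-26a and 2.47e-05 for miR-26b. It called 65.9% of all 132 names, so that a call is the usual outcome at these depths. The miR-26a ratio was lowest in animal 3, and without that animal the adjusted p was 0.123 while 33.3% of the names were called. The miR-26b ratio was highest in animal 1, and without that animal the adjusted p was 0.385 while 47.7% were called.

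The animals were next compared row by row, on CPM scaled with the trimmed mean of M values (TMM), a factor per library that sets most miRNAs level. miR-26a-5p stood at 52900 TMM-scaled CPM in animal 1, 46731 in animal 2 and 39927 in animal 3, a span (highest over lowest animal) of 1.32-fold. miR-26b-5p stood at 5494, 4681 and 5109, a span of 1.17-fold. The guides therefore differed in which animal was lowest, animal 3 for miR-26a-5p and animal 2 for miR-26b-5p. DESeq2 size factors and upper quartile factors gave the same lowest animals. With library totals animal 3 was the lowest for miR-26b-5p too. It was also the lowest in the authors' normalized signal, which is not divided by library totals, and animal 3 had the smallest total.

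Animal 3 was not the lowest in any of the 3p rows. miR-26a-2-3p had 18.1, 20.0 and 28.8 TMM-scaled CPM in animals 1, 2 and 3, a span of 1.58-fold, the widest in the family. miR-26a-1-3p had 9.88, 11.3 and 12.6, a span of 1.28-fold. miR-26b-3p had 66.6, 81.6 and 81.7, a span of 1.23-fold. Animal 1 was the lowest for all 3 of these rows under TMM, library totals, DESeq2 size factors, upper quartile factors and the authors' normalized signal. Animal 3 was the highest for miR-26a-2-3p under each of these, while animal 2 took that place for miR-26a-1-3p and miR-26b-3p with library totals and with the authors' signal, and for miR-26b-3p also with upper quartile factors.

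Against the mean of animals 1 and 2 on the log2 scale, animal 3 differed by -0.32 for miR-26a-5p, 0.01 for miR-26b-5p, 0.15 for miR-26b-3p, 0.24 for miR-26a-1-3p and 0.57 for miR-26a-2-3p. Animal 3 was thus lower in 1 of 5 rows, beside 51.2% of all 391 miRNAs, whose median difference was -0.01. Library totals in place of TMM moved that median to -0.14. With totals the value was -0.45 for miR-26a-5p and 0.44 for miR-26a-2-3p, so these kept their direction, while that of miR-26b-5p became -0.12.

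**Figure D4:**
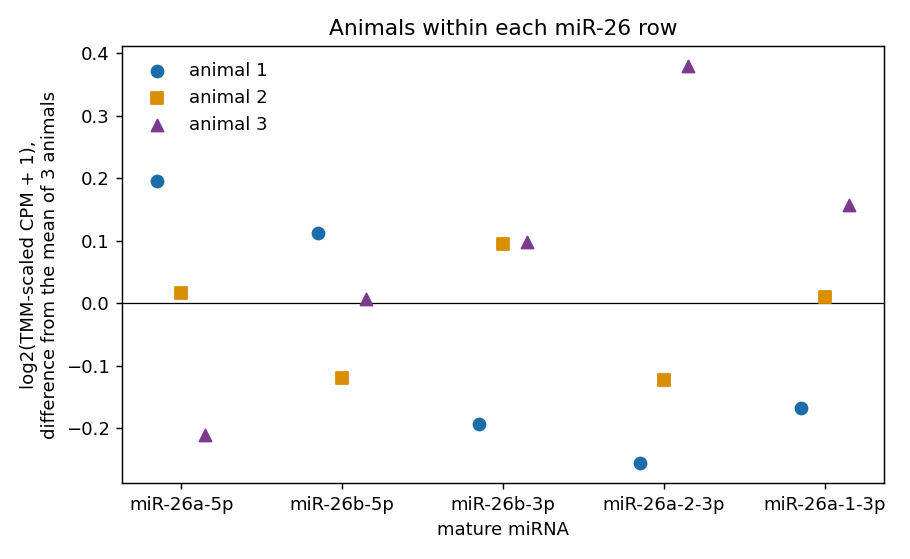
Difference of each animal from the mean of the 3 animals in log2(TMM-scaled CPM + 1), for the 5 miR-26 rows with 1 point per animal. Animal 3 is the lowest point for miR-26a-5p and the highest for miR-26a-2-3p.

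No row of the family spanned more than 2-fold between animals, whereas 39.9% of the 391 miRNAs, 156 in number, did. Dropping animal 3 lowered that number most, to 35 of 391, while dropping animal 1 left 96 and dropping animal 2 left 125. Apart from the refitted TMM factors, a span cannot rise when an animal is dropped, so lower numbers were bound to follow. No row of the family passed 2-fold in these cases either, which for the same reason adds nothing to the spans over all 3 animals. The median span of the 5 rows was 1.28-fold and that of all 391 was 1.71-fold, and 5 of 5 rows were below the latter. The counts of each row were tested for homogeneity (chi-square, expected in proportion to TMM-scaled totals, Benjamini-Hochberg adjusted over all 391 miRNAs), which called 4 of 5 rows different between libraries, beside 80.6% of all 391. For miR-26a-5p the chi-square was 7209, with a p too small to be represented, and for miR-26b-5p the adjusted p was 5.58e-66. The latter rested largely on animal 2. Without that animal the adjusted p of miR-26b-5p was 0.042, against 1.20e-18 without animal 1 and 7.39e-67 without animal 3. At these depths the test passes differences that are small in size. miR-26a-2-3p had an adjusted p of 0.00423 and lost the call without animal 3, at 0.611. miR-26b-3p had an adjusted p of 0.0185 and lost it without animal 1, at 0.988. For miR-26a-1-3p the adjusted p was 0.533, and no difference between libraries was detectable at its 43 to 56 counts. These p-values compare 3 libraries, in which the animal and its library preparation cannot be told apart.

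**Figure D5:**
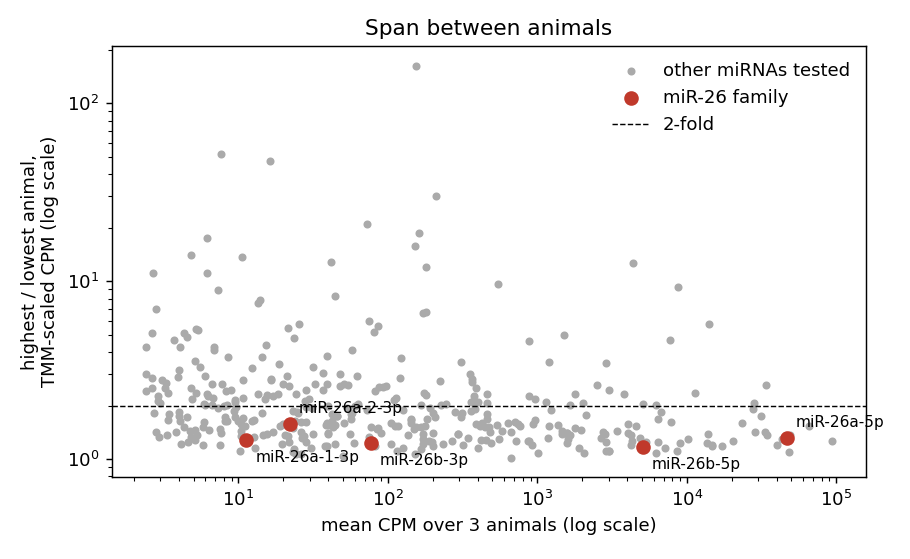
Span between animals, as the TMM-scaled CPM of the highest animal over that of the lowest, against mean CPM over 3 animals, both on log axes, for the miRNAs tested. The 5 miR-26 rows in red lie between 1.17-fold and 1.58-fold, below the dashed line at 2-fold, and 3 other miRNAs with 0 counts in a library are not drawn.

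The miRNAs whose profile over the 3 libraries was nearest to that of each guide were found among 256 others with a mean count of at least 100, by the Euclidean distance of centred log2(TMM-scaled CPM + 1). For miR-26a-5p these were miR-542-3p at a distance of 0.054, miR-376c-3p at 0.067 and miR-543-3p at 0.085. miR-542-3p had 195, 175 and 142 TMM-scaled CPM in animals 1, 2 and 3, miR-376c-3p 1361, 1137 and 1029, and miR-543-3p 37.0, 29.9 and 26.6. All 3 were highest in animal 1 and lowest in animal 3, as miR-26a-5p was. For miR-26b-5p the nearest were miR-148b-3p at 0.064, miR-30b-5p at 0.082 and miR-196b-5p at 0.097, each highest in animal 1 and lowest in animal 2. A shared order of animals comes with choosing miRNAs by this distance and is no separate result. With 3 libraries, near profiles are a description of these samples.

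Other miRNAs known to target EZH2 were taken from a list of miR-101, miR-138 and miR-124, which matched 5 names. miR-101-3p, the guide of the miR-101 hairpins, had 14522, 14240 and 15220 CPM in animals 1, 2 and 3, averaging 14661 CPM ± 504 (SD, n = 3). It lay below miR-26a-5p and above miR-26b-5p in each animal. miR-138-5p had 1515, 1443 and 741 CPM. miR-124a-3p, known from neurons, had a mean of 38.8 CPM ± 8.15 (SD, n = 3). The partner strands miR-101-1-5p and miR-101-2-5p had means of 200.2 and 2.94 CPM. Of the 5 names only miR-138-5p was lowest in animal 3 by CPM, as miR-26a-5p was. miR-101-3p and miR-101-1-5p were highest there, and miR-124a-3p and miR-101-2-5p were lowest in animal 2. The test of homogeneity called 4 of these 5 names, all but miR-101-2-5p, beside the 80.6% of all miRNAs given above. miR-1297 and miR-4465, which share the miR-26 seed in human, matched 0 of the 432 names.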

How the data were processed

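Small RNA from 25 to 30 mg of frozen cortex per animal was sequenced, with libraries made from 12 ng of enriched RNA, per the labels' protocols. The deposited raw table holds read counts per mature miRNA, mapped by the authors with 0 mismatches and kept from 15 reads upward, per the file headers. The smallest sum over the libraries was 15. The aligner and the miRNA release are not given in the sources used here. The deposited normalized signal was made by the authors with edgeR, per the file headers, and for miR-26a-5p it equalled the count divided by the TMM factor. It was used only as an alternative scaling, and it keeps the differences in library totals. The table of RefSeq genes names no build used for the files, so no positions are given.

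CPM and shares divide a raw count by its library's total. TMM factors (1.011, 1.052 and 0.940 for animals 1, 2 and 3) came from edgeR 4.0.16 in R 4.3.3, DESeq2 1.42.0 gave alternative factors, and tests used scipy 1.17.1. No molecular identifiers are described, so Wilson 95% intervals, the floor of 3 counts and the chi-square tests cover counting error only. The threshold was an adjusted p of 0.05. In counts simulated for 391 miRNAs, the test of homogeneity called 144 of 200 changed 1.5-fold in 1 library and 6 of 191 unchanged. In arm counts simulated for 132 hairpin names, the arm test called 31 of 40 whose odds were changed 3-fold and 1 of 92 unchanged. Both simulations drew counting error only, without variation between animals, and so do not give the rate of false calls in these libraries. The rows named are the 5 members, the next miRNA above and below each guide by mean CPM, the 3 nearest profiles of each guide, names sharing the seed, and the EZH2 and cell marker lists. The members and lists were chosen with earlier results of these data known, and the arm test between libraries was added after the data were seen. The labels give no preparation batch.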

Additional observations from a re-analysis of the deposited data

How the results depend on the processing

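Of 117 recalculated values, 104 kept their direction and their side of the threshold, or moved by less than the spread between animals. The family share, the ratio of miR-26a-5p over miR-26b-5p and the 5p shares of both paralogues were among the 104 under all alternatives run. For the family share, leaving out 1 of 3 animals cannot move the mean by as much as the SD, so those outcomes were fixed. The sign-flip tests of the ratio and the 5p shares could not pass 0.05 with 3 animals. Only a reversal of direction could have changed their outcome. The other within-library ratios were not recalculated. Leaving out each animal gave spans of 1.13 to 1.26 for miR-26a-5p, 1.02 to 1.17 for miR-26b-5p, 1.001 to 1.291 for miR-26b-3p, 1.10 to 1.67 for miR-26a-2-3p and 1.12 to 1.35 for miR-26a-1-3p. The TMM factors were refitted each time, and with 2 animals a span has fewer values to range over. With upper quartile factors the span of miR-26b-5p was 1.08; the cause was not tested. Leaving out each animal gave adjusted chi-square p-values of 0.00080 to 0.611 for miR-26a-2-3p and 0.00283 to 0.988 for miR-26b-3p. For miR-26b-5p they were 7.39e-67 to 0.042, the largest without animal 2. For the arm ratios, chosen after seeing the data, they were 5.53e-08 to 0.123 for miR-26a and 1.40e-05 to 0.385 for miR-26b. The number of miRNAs spanning more than 2-fold was 156 of 391, 82 of 259 at a mean count of at least 100, where fewer miRNAs are tested, and 35 to 125 when one animal was left out, lowest without animal 3. At 43 to 107 counts a library, the miR-26a 3p rows are the ones that depth limits most. The comparison of each member at a minimum mean count of 100 was not run for miR-26a-2-3p and miR-26a-1-3p, whose means are below it. No paired analysis was possible because all libraries belong to 1 group.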
